A study of Canis lupus familiaris with 10 samples.

Results

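The 8 panel genes CD14, CD68, CD163, MARCO, MERTK, MRC1, MSR1 and SIGLEC1 encode surface and scavenger molecules by which macrophages are usually recognised. They were chosen by name and are 8 of the 800 genes measured. Their levels were compared between 2 stages of canine cutaneous histiocytoma (CCH), a growth in the skin of mostly young dogs whose cells are of the Langerhans lineage and which often disappears on its own once lymphocytes enter it. Formalin-fixed, paraffin-embedded (FFPE) tumours from 10 dogs were used, 5 early and 5 late, each from another dog. By the histological grouping of Cockerell and Slauson the early CCH were of group 1, in which lymphocytes are lacking, and the late CCH of group 3, which is enriched in lymphocytes. The labels name no treatment, and no cells were sorted. Total RNA came from whole cross sections of a tumour from which surrounding tissue had been trimmed. The early dogs were 0.5 to 5 years old (age not stated for 1 dog) and the late dogs 1.5 to 9 years old. Sex was male for 3 early and 4 late dogs, female for 1 in each stage and not stated for 1 early dog. Breeds were mixed, with 4 among the early and 5 among the late dogs. RNA was hybridised to the nCounter Canine IO Panel, which counts colour-coded barcodes bound to each transcript without amplification.

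Macrophages take up dead cells, microbes and modified lipoproteins through receptors that differ in what they bind. CD14 presents lipopolysaccharide to Toll-like receptor 4, MSR1 and MARCO are class A scavenger receptors for modified lipoproteins and bacteria, and CD163 takes up haemoglobin bound to haptoglobin. MRC1 is the mannose receptor, SIGLEC1 binds sialic acid on other cells, MERTK is a receptor tyrosine kinase through which apoptotic cells are engulfed, and CD68 is a glycoprotein of lysosomes and endosomes. None of these molecules is confined to macrophages, since dendritic and Langerhans lineage cells share several of them, and in bulk tissue fewer cells of a type cannot be told apart from less RNA per cell.

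Several measures of the libraries moved with stage. Barcode counts recovered from the normalized values summed to 484696 to 823763 per early and 945399 to 1253083 per late sample, and the strongest spiked-in positive control exceeded the next by a ratio of 2.09 to 2.17 in early and 2.72 to 2.84 in late samples. The percentage of RNA fragments over 200 nucleotides (DV200) was 64.5 to 71.2 in early and 71.2 to 75.8 in late CCH. According to the study's lists, each stage occupied a cartridge of its own, the late blocks were older, and no RNA extraction batch held both stages, so that stage, cartridge and block age cannot be told apart. The background of a sample (2 SD above the mean of its negative probes) was 21.8 to 38.2 normalized counts in early and 19.2 to 26.9 in late CCH. Early 3 and early 4 went against the description of their stage, because their 17 T cell markers summed to 15210 and 11941 normalized counts, against 803 to 4507 in the other early samples and 22259 to 37523 in late CCH. Of the markers of the Langerhans lineage, CD207 (langerin) was above background in 1 early and 1 late sample only and CD1C in 0 early and 5 late samples, whereas FLT3, CD86, CDH1 and ITGAX were above it in all 10.

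All 8 genes passed the filter of a mean of at least 20 normalized counts. For CCH early versus late, 1 of the 8, CD68, passed a Benjamini-Yekutieli (BY) adjusted p of 0.05 together with a 2-fold change, which 11.2% of the 761 tested genes did (9.2% in the late and 1.97% in the early direction). By the milder Benjamini-Hochberg (BH) adjustment 3 of the 8 passed, CD68, MERTK and MSR1, each higher in late CCH, against 35.7% of tested genes in either direction, 27.3% in the late and 8.41% in the early direction. The median log2 fold change, early minus late, was -0.82 over the 8 genes and -0.18 over all tested genes. CD68 was also the only 1 of the 8 whose samples did not overlap between the stages, which was the case for 24.6% of tested genes. With 8 genes these counts are small, and nothing particular to the 8 genes was read from them.

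**Figure D1:**
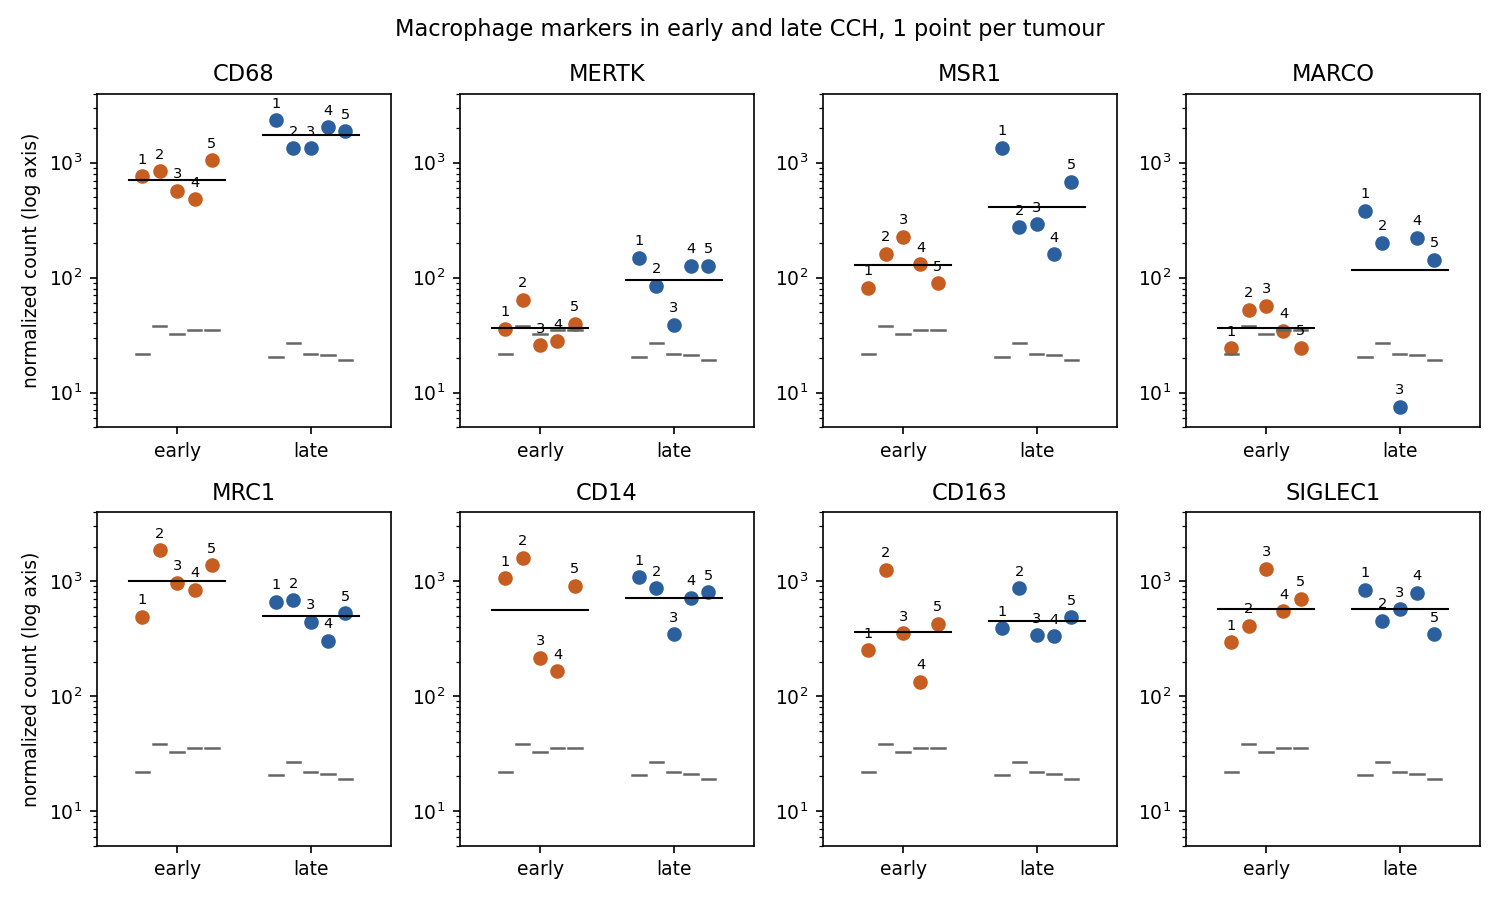
Normalized counts of the 8 genes on a logarithmic axis, in 5 early and 5 late CCH, with each point numbered by its sample. Black lines mark the geometric mean of a stage and short grey ticks the background of each sample. CD68 lies at 479 to 1052 in early and at 1340 to 2333 in late CCH without overlap, and MARCO ranges from 7.56 to 382 within late CCH.

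CD68, the lysosomal glycoprotein, was higher in late CCH. Its normalized counts were 759, 841, 573, 479 and 1052 in early 1 to 5. In late 1 to 5 they were 2333, 1340, 1342, 2038 and 1881. The highest early sample, early 5, was below the lowest late sample, late 2, and early 3 and early 4, the early tumours with T cell signal, were the lowest of all 10. Means were 741 ± 226 and 1787 ± 438 (SD, n = 5 each), and the log2 fold change was -1.29 (SE 0.25, 95% interval -1.84 to -0.74, limma BY adjusted p = 0.0293, BH adjusted p = 0.00406), a fitted difference of 2.44-fold. Relative to the median of all tested genes the log2 difference was -1.11. The call at the BY and 2-fold thresholds was lost in 6 of the 10 fits that left out 1 sample each (without early 1, early 3, early 4, late 1, late 4 or late 5, with BY adjusted p up to 0.0887), whereas the BH call was kept in all 10.

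MERTK, the receptor for engulfing apoptotic cells, was higher in late CCH by the BH adjustment and missed the BY threshold. It was measured at 35.97, 64.5, 25.7, 28 and 39.8 normalized counts in early 1 to 5, of which early 3 and early 4 lay below background. In late 1 to 5 it was at 149, 85.2, 38.9, 127 and 127, above background in all 5. Each late sample but late 3 was above every early sample, and late 3 lay between early 1 and early 5. The means of 38.8 ± 15.5 and 106 ± 43.8 (SD, n = 5 each) differed by a log2 fold change of -1.36 (SE 0.39, 95% interval -2.22 to -0.50, BY adjusted p = 0.154, BH adjusted p = 0.0214 by limma). Without late 3 the log2 fold change was -1.68 with a BY adjusted p of 0.0280, and the BH call was lost without late 1 (BH adjusted p = 0.0530) and without late 4 (0.0542). The underlying barcode counts were 14 to 38 in early and 36 to 137 in late CCH, so that counting error alone is wide for this gene.

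The class A scavenger receptors MSR1 and MARCO had the most negative log2 fold changes of the 8 genes and spread widely within late CCH. MSR1 stood at 81.5, 161, 228, 130 and 89.1 normalized counts in early 1 to 5 and at 1344, 273, 290, 160 and 684 in late 1 to 5. Late 1 and late 5 were far above the rest, and late 4 was the only late sample within the early range. The log2 fold change of MSR1 was -1.67 (SE 0.55, 95% interval -2.89 to -0.45, BY adjusted p = 0.266, BH adjusted p = 0.0369 by limma), with means of 138 ± 59.6 and 550 ± 486 (SD, n = 5 each). Its BH call held in 5 of the 10 fits without 1 sample and was lost without early 1, early 4, early 5, late 1 or late 5, with BH adjusted p of 0.0614 to 0.0860.

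MARCO was at 24.3, 52.6, 56.9, 34.6 and 24.6 normalized counts in early 1 to 5, below background in early 4 and early 5. In late 1 to 5 it was at 382, 201, 7.56, 223 and 144. Late 3, with 7 barcode counts, was below background and the lowest of all 10 samples, while the other 4 late samples were each above every early sample. Over all samples the log2 fold change was -1.65 (SE 0.89, 95% interval -3.62 to 0.33, BH adjusted p = 0.176 by limma) and passed neither adjustment. Without late 3 it was -2.59 with a BY adjusted p of 0.0147, so that this 1 library decided the BY and 2-fold call of MARCO. With late 3 kept and low values lifted to the highest background of the 10 samples it was -1.81, which passed BH (adjusted p = 0.0274) and not BY. Late 3 was also the late sample with the lowest MERTK and CD14, the highest summed B cell markers (21423 normalized counts against 5228 to 11468 in the other late samples) and the lowest summed T cell and cytotoxic lymphocyte markers. The part of these cell types in the MARCO difference was not tested.

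MRC1, the mannose receptor, was the only 1 of the 8 genes with a clearly positive log2 fold change. Its normalized counts were 493, 1854, 966, 845 and 1381 in early 1 to 5 and 660, 680, 444, 303 and 527 in late 1 to 5. The early samples 2 to 5 were each above every late sample, whereas early 1 fell among the late ones. Means were 1108 ± 524 and 523 ± 157 (SD, n = 5 each). The log2 fold change of 1.00 (SE 0.36, 95% interval 0.21 to 1.80, BY adjusted p = 0.367, BH adjusted p = 0.0508 by limma) passed neither adjustment under the deposited scaling to housekeeping genes. Of the 10 fits without 1 sample, only that without early 1 passed BH (1.26, BH adjusted p = 0.0145), and the other 9 did not, among them those without early 2 (0.78, 0.0980) and late 4 (0.82, 0.118).

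That result for MRC1, the call of CD68 and the BH calls of MERTK and MSR1 turned on how samples were scaled. Scaling to the geometric mean of all tested genes moved the median log2 fold change of the panel from -0.18 to 0.21, a shift of 0.38 towards early CCH. MRC1 was then called, with a log2 fold change of 1.39 (limma BY adjusted p = 0.0469), and CD68 was no longer called, with -0.90 (BY adjusted p = 0.197), although it still passed the BH adjustment (0.0273). Quantile normalization gave 1.51 for MRC1 (BY adjusted p = 0.0469) and -0.91 for CD68 (BY adjusted p = 0.139). Scaling to the 75th percentile called neither, with 1.34 for MRC1 (BY adjusted p = 0.0792) and -0.95 for CD68 (BY adjusted p = 0.124). Under the geometric mean, 75th percentile and quantile scalings the BH adjusted p was 0.0624, 0.0544 and 0.0495 for MERTK and 0.0651, 0.0644 and 0.119 for MSR1, so that MERTK passed under the last alone and MSR1 under none of the 3. Relative to the panel median the difference of MRC1 was 1.18 under the deposited scaling and 1.19 under the geometric mean, and that of CD68 was -1.11 and -1.10.

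CD14, CD163 and SIGLEC1 gave no stage difference past either adjustment, and their intervals were wide in both directions. CD14, the lipopolysaccharide co-receptor, was at 1061, 1600, 215, 165 and 913 normalized counts in early 1 to 5 and at 1083, 868, 346, 716 and 799 in late 1 to 5. The late values lay wholly inside the early range, in which early 3 and early 4 were below every late sample and the other 3 early tumours above most of them. The log2 fold change was -0.35 (SE 0.64, 95% interval -1.76 to 1.06, BH adjusted p = 0.694 by limma). Without early 3 and early 4, an alternative chosen after seeing the data, it was 0.69, with the opposite sign and again past no threshold.

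CD163, the haemoglobin scavenger receptor, was at 250, 1262, 352, 133 and 424 normalized counts in early 1 to 5 and at 389, 869, 340, 331 and 484 in late 1 to 5. Sample 2 was the highest in each stage. Early 1 and early 4 were below every late sample, and early 3 and early 5 lay within the late range. Means of 484 ± 448 and 483 ± 224 (SD, n = 5 each) were nearly the same, with a log2 fold change of -0.31 (SE 0.53, 95% interval -1.49 to 0.87, BH adjusted p = 0.679 by limma) whose sign turned under each of the 3 other scalings, which each moved the panel median towards early CCH. Relative to the panel median the difference was -0.13 under the deposited, geometric mean and 75th percentile scalings and 0.022 under quantile normalization. The summed neutrophil markers were 28835 in early 2 and 36603 in late 2, the highest late value, but were 38025 in early 1, where CD163 was the second lowest of the early samples. Their part in the CD163 levels was not tested.

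SIGLEC1, the sialic acid-binding receptor, was at 294, 410, 1281, 550 and 703 normalized counts in early 1 to 5 and at 838, 451, 568, 791 and 346 in late 1 to 5. Early 3 was the highest and early 1 the lowest of all 10, with the late samples between them. The log2 fold change was 0.0054 (SE 0.40, 95% interval -0.87 to 0.88, BH adjusted p = 0.995 by limma).

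**Figure D2:**
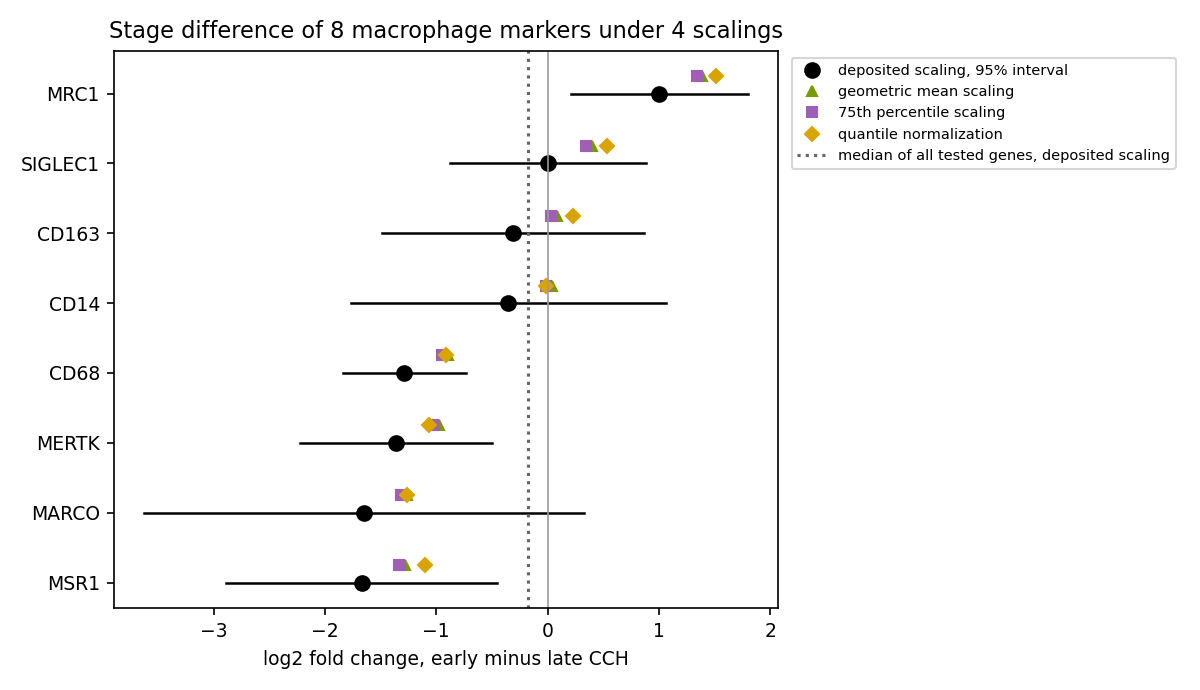
Log2 fold changes of the 8 genes, early minus late CCH, with 95% intervals under the deposited scaling and point values under 3 other scalings (geometric mean, 75th percentile and quantile). Values below 0 are higher in late CCH, and the dotted line marks the median of the 761 tested genes at -0.18. CD68, MERTK, MSR1 and MARCO lie below 0 and MRC1 above 0 under every scaling, whereas CD14 and CD163 change sign.

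Ratios of 2 genes within the same tumour, taken of normalized count + 1, depend little on how that tumour was scaled, more so for low genes such as MERTK and MARCO, and the 28 possible pairs of the 8 genes were compared between the stages by an exact two-sided permutation test with BH adjustment over the pairs. With 5 samples against 5 the smallest p this test can give is 0.00794, and at least 5 pairs would have to reach it for any to pass the adjustment. No pair passed: 0 of 28 had a BH adjusted p of 0.05 or less and 8 of 28 had an unadjusted p under 0.05. Of these 8, 5 contained MRC1 and 3 contained SIGLEC1.

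The 3 pairs at the smallest p set MRC1 against CD68, MERTK and MSR1 (exact permutation p = 0.00794, BH adjusted p = 0.0741 for each). The size of such a ratio depends on the probes, so that it is read only between samples. MRC1 over CD68, each as normalized count + 1, was 0.650, 2.20, 1.68, 1.76 and 1.31 in early 1 to 5 and 0.283, 0.508, 0.331, 0.149 and 0.281 in late 1 to 5. Every early sample was above every late sample, early 1 included, whose MRC1 level alone was within the late range. The mean log2 ratio of CD68 to MRC1 was 2.29 lower in early than in late CCH, that of MERTK to MRC1 differed by -2.36, and that of MRC1 to MSR1 was 2.67 higher. MERTK was below background in early 3 and early 4, and with all values lifted to the highest background of the 10 samples its difference was -2.15. Under that floor MARCO against MRC1 joined the pairs at the smallest p (log2 difference -2.81, exact permutation p = 0.00794), and the BH adjusted p of all 4 was 0.0556, still short of the threshold. The mean log2 ratio of CD68 to MERTK was 4.24 ± 0.39 in the early and 4.17 ± 0.51 in the late tumours (SD, n = 5 each), a difference of 0.070 with an exact permutation p of 0.817. MRC1 over CD163, a pair often read together as markers of alternative activation, had a log2 difference of 1.31 (exact permutation p = 0.0159, BH adjusted p = 0.111).

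**Figure D3:**
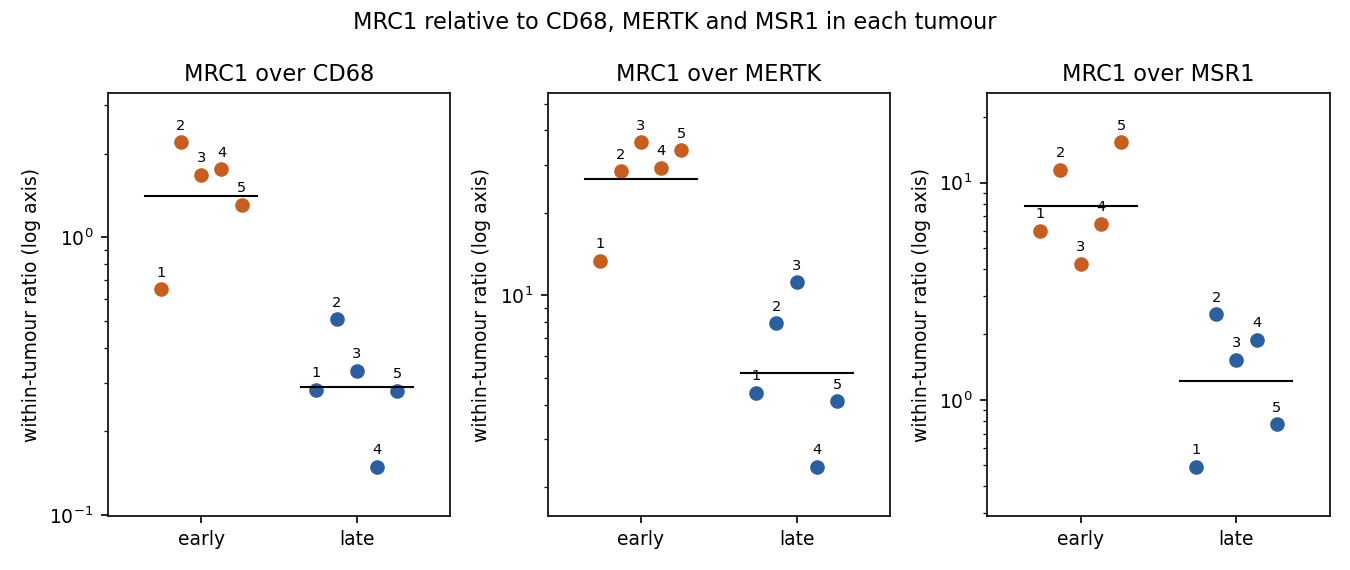
Ratio of MRC1 to CD68, to MERTK and to MSR1 within each tumour, each gene taken as normalized count + 1, on a logarithmic axis, for 5 early and 5 late CCH. In each panel the lowest early sample lies above the highest late sample, with 0.650 against 0.508 for CD68, 13.4 against 11.2 for MERTK and 4.23 against 2.48 for MSR1.

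The 8 genes varied among tumours of 1 stage more than most of the panel. The SD of log2 values within stages was above the panel median of 0.46 for 7 of the 8, and below it for CD68 only (0.41). MARCO had the largest spread of the 8 (1.58, above 97.9% of tested genes), with an SD of 0.57 in early and 2.17 in late CCH. CD14 followed with 1.13 (above 90.9% of tested genes), and here the spread was in early CCH, with an SD of 1.47 against 0.62. CD163 was alike in this, with 1.19 in early and 0.57 in late CCH. The highest early value exceeded the lowest 9.71 times for CD14 and 9.46 times for CD163, against 3.12 and 2.63 times in late CCH. The late spread of MARCO rests on late 3, which was below background, so that its size is uncertain.

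The tumours differed in which of the 8 genes were high. Late 1 had the highest late level of 6 genes, CD14, CD68, MARCO, MERTK, MSR1 and SIGLEC1, and late 2 that of the remaining pair, CD163 and MRC1. In early CCH, early 2 was highest for CD14, CD163, MERTK and MRC1, and early 3 for MARCO, MSR1 and SIGLEC1, although early 3 had the lowest MERTK. Early 4 was lowest for CD14, CD68 and CD163, and early 1 for MARCO, MRC1, MSR1 and SIGLEC1. Late 3 was below the mean of its stage for 7 genes and level with it for SIGLEC1, and early 4 was below for 7 and nearly level for MSR1.

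**Figure D4:**
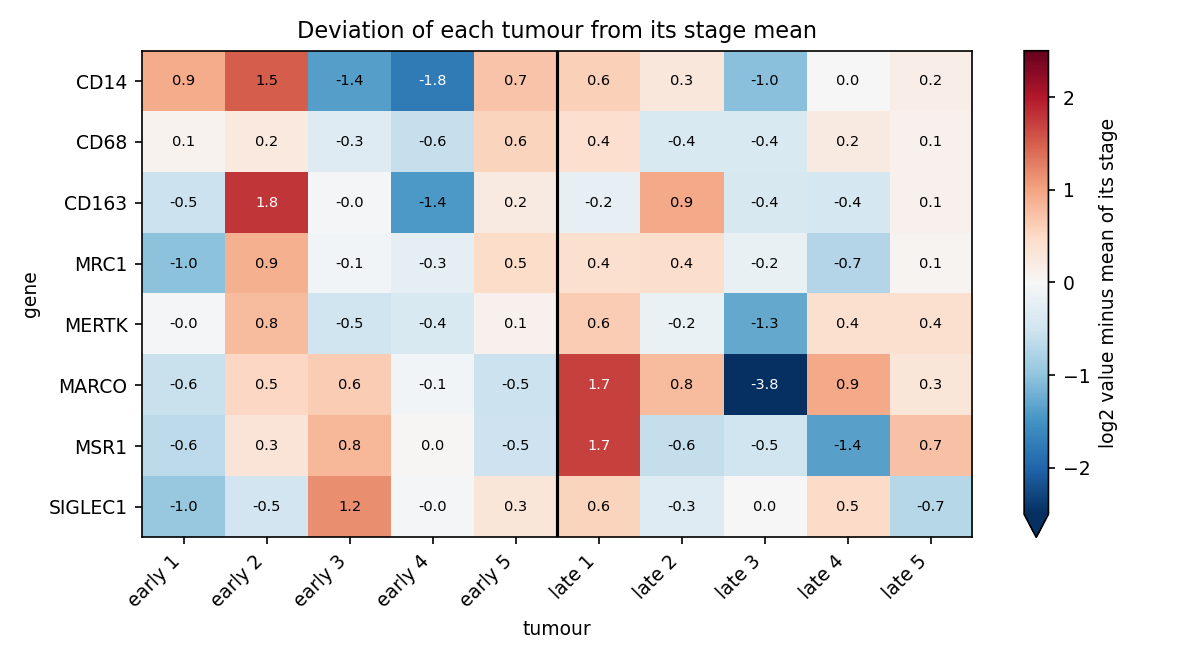
Heat map of the 8 genes in the 10 tumours, each value being the log2 normalized count minus the mean of that gene in its stage. Late 1 is above its stage mean for most genes, late 3 is far below it for MARCO, and early 3 and early 4 are below it for CD14.

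Across the 10 samples, with each stage centred on its own mean, the genes nearest to the 8 were sought by Pearson's r over all tested genes. These correlations are a description over 10 samples that share their scaling, and no test was made. CD14 ran closest to IL31RA, a subunit of the interleukin 31 receptor, with r = 0.98. IL31RA was at 161, 356, 36.7, 28 and 180 normalized counts in early 1 to 5, with the same low early 3 and early 4 as CD14. CD68 was nearest to ATG7, an autophagy enzyme (r = 0.87), MERTK to the transcription factor CEBPB (0.87), MSR1 to the inhibitory collagen receptor LAIR1 (0.87) and MARCO to the granzyme gene GZMB (0.88). MARCO was itself below background in 3 samples, and late 3 was the low late sample of both genes, with 613 normalized counts of GZMB against 4738 to 5420 in the other late samples. The nearest genes of CD163 (IL1B, 0.90), MRC1 (HDC, 0.90) and SIGLEC1 (IL25, 0.87) were above background in only 5, 2 and 5 of the 10 samples and are of little use as partners. Among the 8 genes themselves the closest pairs were CD14 with CD68 and MARCO with MERTK (r = 0.77 each) and CD163 with MRC1 (0.73), while the best partner of SIGLEC1 was MSR1 with only 0.24.

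Other panel genes of macrophage biology were grouped in 7 lists, chosen with earlier results of these data known. Of the growth and lineage factors, 3 of 11 were called by BY and 2-fold in the late and 1 in the early direction, against 9.2% and 1.97% of all tested genes, with a list median of -0.45 against -0.18 for all tested genes. CSF1, the main growth factor of macrophages, was at 639 ± 383 normalized counts in early and 3046 ± 818 in late CCH (SD, n = 5 each, log2 fold change -2.41, limma BY adjusted p = 0.0152). MAF, a transcription factor of macrophages and of some T cells, and CSF2RB, a shared cytokine receptor chain, were also higher in late CCH (-1.65 and -1.01, limma BY adjusted p = 0.0238 and 0.0241), but CSF2RB was called under none of the other 3 scalings (log2 fold change as small as -0.39). TYROBP, an adaptor of myeloid and natural killer receptors, went the other way, from 12339 ± 1179 in early to 4515 ± 413 in late CCH (SD, n = 5 each, log2 fold change 1.45, limma BY adjusted p = 0.00143). CSF1R, the receptor for CSF1, had a log2 fold change of -0.42 and did not pass (BH adjusted p = 0.213 by limma).

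Of 11 other phagocyte genes, 2 passed the BY and 2-fold thresholds, both higher in late CCH, and by BH 4 were higher in late and 1 in early CCH (27.3% and 8.41% of all tested genes, list median -0.73). Under the other 3 scalings 1 was called by BY and 2-fold, LAIR1, and by BH 3 were higher in late and 2 or 3 in early CCH. Of the 761 tested genes, 73 to 81 passed BY and 2-fold there and 324 to 346 passed BH, in either direction, and shares by direction were not counted. LAIR1 had a log2 fold change of -2.21 (BY adjusted p = 0.00476) and CYBB, the catalytic subunit of the phagocyte oxidase, one of -1.30 (BY adjusted p = 0.0300), a call that was lost under the other 3 scalings. The chemokine receptor CX3CR1 was the BH call in the early direction (1.49, BH adjusted p = 0.0275 by limma), with late values of 16.2 to 46.5 normalized counts, mostly within the range of background.

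The counts for relatives of the 8 genes in function depended on scaling. Among 12 tested genes listed with CD14 for lipopolysaccharide and other Toll-like receptor sensing, none passed the BY and 2-fold thresholds under the deposited scaling, and 3 passed BH as higher in early CCH, TLR6, CD180 and IRAK4 (log2 fold changes 0.79, 1.00 and 0.67), against 8.41% of all tested genes in that direction. TLR4, to which CD14 presents lipopolysaccharide, did not pass BH under that scaling (-0.26, BH adjusted p = 0.674 by limma), nor did LY96 (0.46, 0.117). Under the other 3 scalings 7 or 8 of the 12 passed BH and 2 or 3 the BY and 2-fold thresholds, all higher in early CCH. Of the 761 tested genes, 324 to 346 passed BH there and 73 to 81 the BY and 2-fold thresholds, in either direction. Shares by direction were not counted under those scalings, so that nothing particular to this list was read from these counts. Of 4 genes of apoptotic cell uptake measured beside MERTK, ITGAV was higher in early CCH by BH (0.52), and the related receptor AXL did not pass (-0.45, BH adjusted p = 0.124), with a sign that turned under another scaling. Of 7 other scavenger and lectin receptors, the C-type lectins CLEC5A and CLEC7A were higher in early CCH by BH (0.89 each), and CD209, a lectin of macrophages and dendritic cells, had the lowest value of this list without passing (-1.90, BH adjusted p = 0.0658).

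Lists of activation genes were mixed, and their counts are read against the shares of all tested genes, 9.2% in the late and 1.97% in the early direction by BY and 2-fold and 27.3% and 8.41% by BH under the deposited scaling. Under the other 3 scalings 324 to 346 of the 761 tested genes passed BH and 73 to 81 BY and 2-fold, in either direction. Shares by direction were not counted there, so that list counts under those scalings have no matching share. In the list of polarising cytokines and alternative activation, 1 of 14 was called by BY and 2-fold, IL13RA1, a receptor chain for interleukin 13, which was higher in early CCH (1.19, BY adjusted p = 0.00543). By BH 3 of the 14 were higher in each stage under the deposited scaling, but 0 in late and 6 or 7 in early CCH under the other scalings, which moved the whole panel towards early CCH. In the list of classical activation, 1 of 16 passed, the interferon-regulated factor IRF1, higher in late CCH (-1.70, BY adjusted p = 0.0161), and by BH 5 were higher in late and 1 in early CCH. The gene in the early direction was IFNGR1, a chain of the interferon gamma receptor (0.98, BY adjusted p = 0.0235), just short of a 2-fold change. Under the other 3 scalings 1 gene was called in each direction, and by BH 3 or 4 were higher in late and 1 or 2 in early CCH. The lowest log2 fold change there was that of CCL5 (-2.87, BH adjusted p = 0.0437), a chemokine that T cells also make.

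Markers of other cell types moved with stage beside the 8 genes. All 16 tested T cell markers were higher in late CCH by BH, as were 9 of 12 cytotoxic lymphocyte and 8 of 12 B cell markers, against 27.3% of all tested genes, and the ranges of their summed levels did not overlap between the stages (803 to 15210 against 22259 to 37523 for T cells, 1175 to 8204 against 11025 to 27206 for cytotoxic lymphocytes, 2704 to 4510 against 5228 to 21423 for B cells). The 14 Langerhans and dendritic cell markers summed to 7002 to 13430 in early and 6675 to 10622 in late CCH, and by BH 3 of them were higher in early and 4 in late samples, where all tested genes gave 8.41% and 27.3%. FLT3, a growth factor receptor of dendritic cells, and FCER1A, a chain of the immunoglobulin E receptor, were the called members (log2 fold changes 2.49 and 2.44). Summed neutrophil markers (1577 to 38025 against 1822 to 36603) and summed stromal and endothelial markers (6541 to 46304 against 16630 to 38217) overlapped. No marker was at 0 in any sample. Without early 3 and early 4, the early tumours with T cell signal, CD68 had a log2 fold change of -0.99 (limma BY adjusted p = 0.0978) and none of the 8 genes passed the BY and 2-fold thresholds, although 2 passed BH. The part of lymphocytes in the differences of CD68, MERTK, MSR1 and MRC1 was not tested.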

How the data were processed

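RNA of 10 FFPE tumours was hybridised by the authors to the nCounter panel and counted. The deposited values are a signal that the authors normalized in nSolver 4.0 to positive controls and then to housekeeping genes, on a linear scale (normalized counts), with no background subtraction stated. In each sample at least 99.4% of genes, within a tolerance of 0.0051, were whole multiples of the worth of 1 barcode, and the recovered counts served for depth and background only. Depth sets counting error. Background averaged 20.2 barcode counts in early and 20.3 in late CCH. The worth of 1 barcode was larger in early CCH (mean 1.63 against 1.09), and with it the background in normalized counts (mean 32.6 against 21.9).

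Samples were grouped by title. Stages were compared on log2(normalized count + 1) by moderated linear models (limma 3.58.1, R 4.3.3) whose prior variance followed the mean level, over 761 of 800 genes with a mean of at least 20, control probes left out, late CCH as baseline. Fold changes on this scale understate those of low genes. The thresholds for a call, a BY adjusted p of 0.05 and a 2-fold change, follow the study's design. The limma p-values set the stage difference against the spread between tumours of the same stage. Any difference between cartridges or extraction batches cannot be told apart from that stage difference. Pairs were tested with scipy 1.17.1, and the limma script was tested on simulated data. Figures were drawn with matplotlib 3.10.9.

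The 8 genes and all lists were chosen with earlier results of these data known. Named beside the 8 genes are the extremes and called genes of each list and the gene nearest to each of the 8. Other genes named one by one (CSF1R, IFNGR1, TLR4, LY96, TLR6, CD180, IRAK4, CLEC5A or CLEC7A, CD207, CD1C, CD86, CDH1, ITGAX) were chosen after their values were seen. Alternatives covered the pseudocount, the filter, scaling, weights, DV200, sex, a background floor and leaving out samples. The extraction batch as a random block and the fit without early 3 and early 4 were added after seeing the data. All 8 symbols matched RefSeq's gene table (UU_Cfam_GSD_1.0). Coordinates are left out because the probes were designed on an older assembly.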

Additional observations from a re-analysis of the deposited data

Results flagged for a closer look

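Among the 8 genes, the summed marker levels and the named genes, 104 groups of 5 samples were searched for a sample set apart, defined as a gap to its neighbour above 0.71 of the range. For normally distributed values chance gives such a gap in about 5% of groups. It was found in 8 (7.69%), all on the high side, among them 2 of the 16 groups of the 8 genes. The values searched were on a linear scale and the groups share samples, so that the 5% is only a rough guide. CD163 was set apart in early 2 (1262 normalized counts against 133 to 424 in the other early samples) and in late 2 (869 against 331 to 484). In late 2 the neutrophil gene S100A9 (6762 against 89.6 to 1410), the summed neutrophil markers (36603 against 1822 to 5847) and CX3CR1 (46.5 against 16.2 to 24.8) were set apart as well. TNFRSF13C, a B cell receptor gene, was set apart in early 1 (1713 against 921 to 1148) and in late 3 (2497 against 416 to 827). The summed Langerhans and dendritic cell markers of late 3 were set apart from the other late samples (10622 against 6675 to 7618), within the early range of 7002 to 13430.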

How the results depend on the processing

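Of the 8 genes, MARCO, MERTK and MSR1 kept their direction and stayed short of the BY and 2-fold thresholds in 15 of 15 alternatives that used other settings, and CD68 kept its direction and its BH call in all 15. CD68 lost the BY and 2-fold call under geometric mean (-0.90), quantile (-0.91) and 75th percentile (-0.95) scaling, with DV200 as a covariate (-1.97, BY adjusted p = 0.0510), in male dogs only (-1.46, 3 early and 4 late) and without early 3 and early 4 (-0.99). MRC1 gained it under geometric mean (1.39) and quantile (1.51) scaling, under which it was the only called gene of the 8. CD14 turned in sign under geometric mean scaling (0.038) and without early 3 and early 4 (0.69) and was -1.58 with DV200 as a covariate, CD163 under geometric mean (0.081), quantile (0.23) and 75th percentile (0.029) scaling and without early 3 and early 4 (0.19), and SIGLEC1 in male dogs (-0.57), with the extraction batch as a random block (-0.023) and without early 3 and early 4 (-0.37). None of these 3 genes was called in any of them. The number of the 8 genes past the BY and 2-fold thresholds, 1 as reported, was 0 under 75th percentile scaling, DV200, male dogs only and without early 3 and early 4, and 3 (CD68, MERTK and MSR1) with BH in place of BY. MERTK passed BH in 11, MSR1 in 8 and MRC1 in 7 of the 15, and with array weights MRC1 (BH adjusted p = 0.0295) took the place of MSR1 (0.0611). The number past BH, 3 as reported, was 1 (CD68) in male dogs, 2 under geometric mean and 75th percentile scaling (CD68 and MRC1), with DV200 or the replicate number as a block (CD68 and MERTK) and without early 3 and early 4 (CD68 and MSR1), and 4 with a pseudocount of 10, a mean of at least 50 or the extraction batch (with MRC1) and with a background floor (with MARCO).

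With the replicate number of the titles as a block, CD68 had a log2 fold change of -1.29 with a BY adjusted p of 0.115, so that 0 of the 8 genes and 1 of 761 genes were called. The numbers name different dogs, and same-numbered samples did not deviate together (r from -0.199 to 0.159).

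Leaving out 1 sample at a time, the log2 fold changes ranged from -0.73 to 0.088 for CD14, -1.43 to -1.15 for CD68, -0.76 to 0.051 for CD163, -2.59 to -1.22 for MARCO, -1.68 to -1.20 for MERTK, 0.78 to 1.26 for MRC1, -2.01 to -1.24 for MSR1 and -0.29 to 0.24 for SIGLEC1. The 8 genes gave 0 to 3 BY and 2-fold calls (3, CD68, MARCO and MERTK, without late 3) and 1 to 4 BH calls. The 0 pairs past BH in these fits say nothing of stability, because the smallest exact p with 4 samples against 5 is 0.0159. Over the panel these fits called 39 to 98 genes by BY and 2-fold, against 85 as reported, and 0 were called with DV200 or in male dogs only (45 and 133 by BH). Count tests on recovered counts by edgeR and DESeq2 were planned and not run, because the steps did not give whole counts for every sample under a stricter test. The label gives late 5 a DV200 that differs from the study's own list, and the label was used. The cause of these changes was not tested. MARCO and MERTK were below background in 3 and 2 samples, where their levels are only bounds.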
